A study of Homo sapiens with 6 samples.

Results

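The genes of the collagen matrix were examined in 21NT cells, a non-invasive human breast cancer line, after stable overexpression of TBX3. The members were chosen by symbol: every collagen chain gene, the matrix glycoproteins FN1, SPARC, TNC and POSTN, and the lysyl oxidases LOX, LOXL1, LOXL2, LOXL3 and LOXL4. Of 20824 genes in the table, 51 met the rule, of which 42 were collagen chains. 21NT cells had been transfected with the pcDNA3.1 vector, either empty (EV) or carrying TBX3iso1 or TBX3iso2, the 2 splice isoforms of this T-box transcription factor. All 3 lines carried the vector, grew in the same medium with insulin, EGF, hydrocortisone and serum, and were kept under G418. Resistant clones were pooled, so each condition is 1 transfected line, measured by RNA-Seq in 2 libraries. Nothing in the labels ties the 2 libraries of a line to separate transfections, so the p-values measure the spread between these libraries, which may be technical, and a difference between lines cannot be told apart from a difference between transfected pools.

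Collagens are trimers of chains that are hydroxylated, glycosylated and folded in the endoplasmic reticulum, secreted, trimmed and assembled outside the cell. Fibrillar collagens form the rope-like fibers of stroma, type IV forms the sheet of the basement membrane that underlies mammary epithelium, type VI forms beaded filaments beside it, and type VII anchors it to the stroma. FACIT collagens (fibril-associated collagens with interrupted triple helices) sit on the surface of fibrils. Fibronectin and tenascin C are glycoproteins woven into the same matrix, and lysyl oxidases are copper enzymes that crosslink collagen and elastin.

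Levels are given as RPKM, reads divided by transcript length and by library size, so that genes of different length can be compared. Libraries held 43176600 to 54512400 alignments, but the table gives no gene counts. Approximate numbers of alignments are given for low chains, from RPKM, depth and the longest coding transcript in GENCODE, and the tests use only the spread between replicates. Of the 51 members, 24 averaged 0.5 RPKM or more across the 6 libraries and entered the tests, 17 of them collagens. A member was called higher or lower with limma at a Benjamini-Hochberg adjusted p under 0.05 and a fold over 1.5, on log2 of RPKM + 0.1, a scale that understates the change of low genes. TBX3 itself was at 8.52 and 8.24 RPKM in EV, 13.1 and 11.4 in TBX3iso1 and 17.5 and 15.5 in TBX3iso2. Its rise passed both thresholds in TBX3iso2 (1.96-fold) and the adjusted p alone in TBX3iso1 (1.45-fold, adjusted p = 0.00378), and the table does not separate the isoforms.

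The RNA was that of epithelial cells by its markers. KRT8, KRT18, KRT19, EPCAM and CDH1 summed to between 1802 and 2335 RPKM in every library. Within these, CDH1 was called lower in TBX3iso1 (-0.70, from 148 and 142 RPKM to 94.0 and 84.4). KRT19 was called lower in TBX3iso2 (-0.72, from 697 and 662 to 387 and 441). CDH1 in TBX3iso2 (-0.51, 111 and 93.3 RPKM) and KRT19 in TBX3iso1 (-0.57, 438 and 481 RPKM) were also below EV. Both passed the adjusted p of limma (0.00592 and 0.00627) and missed the fold of 1.5. Of 6 fibroblast markers, the 5 other than PDGFRA summed to 0.493 to 0.499 RPKM in EV, 0.687 to 0.814 in TBX3iso1 and 0.229 to 0.272 in TBX3iso2, and THY1 stayed at or below 0.0304 RPKM. PDGFRA was at 8.08 and 7.98 RPKM in EV, 3.63 and 3.28 in TBX3iso1 and 0.0111 and 0.0132 in TBX3iso2. The basal markers KRT5, KRT14, KRT17 and TP63 summed to 11.3 to 11.7 RPKM in EV, 11.9 to 12.8 in TBX3iso1 and 14.3 to 15.9 in TBX3iso2, within which KRT5 rose and TP63 fell in both isoform lines. Of the endothelial markers, PECAM1 fell from 7.12 and 7.46 RPKM to between 1.14 and 1.37 in the isoform lines while CDH5 and VWF stayed near 0. Of the leukocyte markers, PTPRC and CD3E were near 0 and CD68 was at 34.0 to 44.1 RPKM. In bulk RNA, fewer cells that express a gene and less RNA per cell cannot be told apart.

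Counted over the tested members, 10 were higher and 5 lower in TBX3iso1 than in EV, where 7.46% of all 12805 genes tested were called higher and 14.1% lower. In TBX3iso2 against EV, 7 were higher and 6 lower, beside 8.94% and 12.3% of all genes. Between the isoforms, 3 were higher and 7 lower in TBX3iso2, beside 3.47% and 2.82% of all genes. COL6A2 and COL27A1, higher in both isoform lines and at 0.418 and 0.395 RPKM on average in EV, passed the filter through those lines. COL4A6 and COL28A1, at 0.577 and 0.522 in EV, and COL5A2, at 0.555 in TBX3iso2, did not pass it. With no filter, 13 members were higher and 5 lower in TBX3iso1, beside 1140 and 2276 of 20824 genes. In TBX3iso2 10 were higher and 8 lower, beside 1329 and 2066. Some of these calls were of members far below the filter, among them POSTN, COL8A2 and COL11A2. The median log2 fold change of the 24 tested members was 0.50, 0.06 and -0.45 in the 3 comparisons, beside -0.05, -0.0021 and 0.05 over all genes tested. With the 27 members below the filter included, the medians were 0.09, 0.03 and -0.07. When 1 library was left out, the medians of the tested members alone ranged from 0.37 to 0.58, from -0.0049 to 0.18 and from -0.50 to -0.28. The TBX3iso2 median was 0.14 without EV replicate 1, 0.02 without EV replicate 2, -0.0049 without TBX3iso2 replicate 1 and 0.18 without TBX3iso2 replicate 2, and the median between the isoforms was -0.29 without TBX3iso1 replicate 1 and -0.28 without TBX3iso2 replicate 2. These comparisons share libraries, so their values are set side by side and not combined. Among all genes the split of calls depended on scaling, from 955 higher and 1802 lower in TBX3iso1 to 1259 and 1313 after quantile normalization and 1263 and 1445 after median-ratio scaling. In TBX3iso2 it went from 1145 and 1575 to 1315 and 1338, and to 1276 and 1456.

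**Figure D1:**
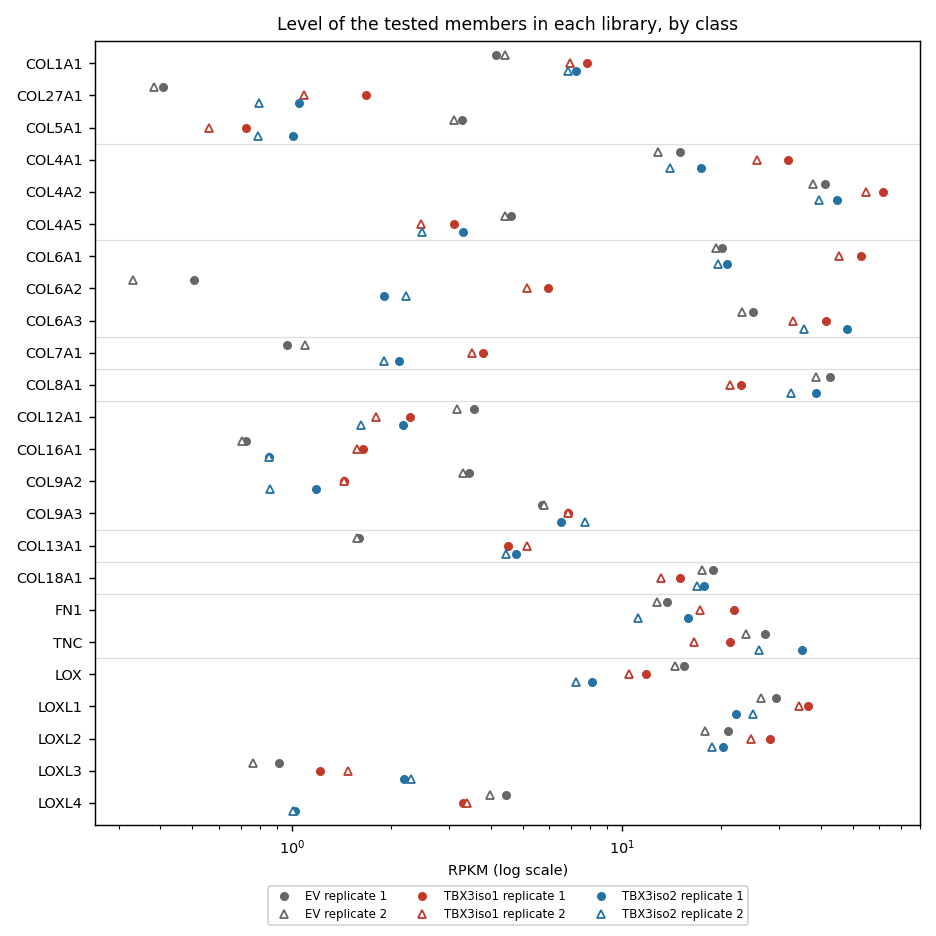
RPKM (log axis) of the 24 tested members in each of the 6 libraries, grouped by class from fibrillar collagens at the top to lysyl oxidases at the bottom, with circles for replicate 1 and triangles for replicate 2. COL6A2 lay at 0.505 and 0.330 RPKM in EV and at 5.95 and 5.15 in TBX3iso1, and the COL5A1 points of EV lay above those of both isoform lines.

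By summed RPKM the collagen chains stood at 194 and 180 in EV, 268 and 232 in TBX3iso1 and 222 and 191 in TBX3iso2. The lowest TBX3iso1 library was above both EV libraries, while 1 TBX3iso2 library fell within the EV range. COL4A2, COL8A1, COL6A3, COL6A1, COL18A1 and COL4A1 together made up 82.8% to 84.5% of the collagen RPKM in every library. These are chains of basement membrane, pericellular networks and filaments, and the 11 fibrillar chains summed to only 8.26 and 8.28 RPKM in EV, 11.1 and 9.52 in TBX3iso1 and 10.2 and 9.12 in TBX3iso2.

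Of the 11 fibrillar chains, 3 were tested, and each was called against EV in both isoform lines. COL1A1, the major chain of type I collagen, gave 4.16 and 4.44 RPKM in EV, 7.84 and 6.98 in TBX3iso1 and 7.27 and 6.86 in TBX3iso2. Both isoform lines were above EV with no overlap, by a log2 fold change of 0.77 (95% interval 0.55 to 0.99, adjusted p = 0.000655) and 0.70 (0.48 to 0.93, adjusted p = 0.000948). COL5A1, a chain of type V collagen, which starts fibrils and limits their diameter, moved the other way, from 3.29 and 3.10 RPKM in EV to 0.728 and 0.563 in TBX3iso1 and 1.01 and 0.788 in TBX3iso2. Its fall, -2.15 (-2.55 to -1.75, adjusted p = 8.73e-05) and -1.73 (-2.13 to -1.33, adjusted p = 0.000233), was the largest of the tested members in TBX3iso1, and the isoforms differed by 0.42 with an adjusted p of 0.143. COL27A1, a minor fibrillar chain of cartilage, was at 0.408 and 0.382 RPKM in EV, 1.68 and 1.09 in TBX3iso1 and 1.05 and 0.795 in TBX3iso2. It was higher by 1.56 (1.03 to 2.08) and 1.04 (0.51 to 1.56), and it entered the tests only through the isoform lines, its EV level being below 0.5 RPKM. Without EV replicate 2 the TBX3iso2 difference of COL27A1 was 1.00 with an adjusted p of 0.0578.

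The other fibrillar chains were below the filter: COL1A2, COL2A1, COL3A1, COL5A2, COL5A3, COL11A1, COL11A2 and COL24A1. COL1A2, the partner of COL1A1 in type I trimers, stood at 0.0418 and 0.0477 RPKM in EV, 0.276 and 0.354 in TBX3iso1 and 0.0539 and 0.0376 in TBX3iso2. Only its TBX3iso1 libraries stood clear of EV. In a fit with no filter its log2 fold change was 1.51 in TBX3iso1 (adjusted p = 0.00315) and -1.51 between TBX3iso2 and TBX3iso1 (adjusted p = 0.0136). These levels stand for about 11.6 and 10.4 alignments in EV, 71.5 and 90.2 in TBX3iso1 and 13.9 and 8.24 in TBX3iso2. COL5A2, the partner of COL5A1, was at 0.0620 and 0.0786 RPKM in EV, 0.421 and 0.338 in TBX3iso1 and 0.607 and 0.503 in TBX3iso2, so it was higher where COL5A1 was lower. The unfiltered fit gave 1.49 (adjusted p = 0.00523) and 1.94 (adjusted p = 0.0029), from about 23.1 and 23.2 alignments in EV. COL11A2 went the other way, from 0.187 and 0.152 RPKM in EV to 0.0915 and 0.0839 in TBX3iso1 and 0.0957 and 0.0469 in TBX3iso2. The unfiltered fit gave -0.52 (adjusted p = 0.0848) and -0.67 (adjusted p = 0.0446, a call), from about 65.5 and 42.1 alignments in EV. COL3A1, which dominates loose stroma, reached no more than 0.0665 RPKM in any library.

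The tested member with the largest fall in TBX3iso1, COL5A1, lies on chr9:137533649-137736689 (plus strand, hg19). Promoter windows were the 250 bases before and 50 bases from a start in RefSeq. COL5A1 has 2 of them, and the first by position (GRCh38.p14, chr9:134641553-134641852, plus strand) is shown with the transcribed bases in capitals. It is 74.0% G or C beside a median of 58.7% over 35116 such windows.
COL5A1: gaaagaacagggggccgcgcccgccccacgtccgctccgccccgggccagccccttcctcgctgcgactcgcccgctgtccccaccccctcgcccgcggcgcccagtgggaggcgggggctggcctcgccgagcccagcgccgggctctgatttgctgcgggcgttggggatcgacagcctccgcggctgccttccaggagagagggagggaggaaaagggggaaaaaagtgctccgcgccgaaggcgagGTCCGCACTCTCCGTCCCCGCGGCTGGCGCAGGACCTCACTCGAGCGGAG

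Type IV collagen, the network of the basement membrane, had 3 of its 6 chains tested. COL4A1 gave 15.0 and 12.9 RPKM in EV, 31.9 and 25.7 in TBX3iso1 and 17.4 and 13.9 in TBX3iso2. The TBX3iso1 libraries stood above the other 4, at 1.04 over EV (0.71 to 1.37, adjusted p = 0.00105) and with TBX3iso2 lower than TBX3iso1 by -0.87 (-1.21 to -0.54, adjusted p = 0.00797), while TBX3iso2 and EV differed by 0.16 (-0.17 to 0.50, adjusted p = 0.381). COL4A2, its partner in the ubiquitous heterotrimer and the most abundant collagen of both isoform lines by mean, was at 41.2 and 38.0 RPKM in EV, 61.7 and 54.9 in TBX3iso1 and 44.9 and 39.5 in TBX3iso2. Its TBX3iso1 difference of 0.56 (0.33 to 0.78) passed the adjusted p (0.00296) and missed the fold of 1.5. Without EV replicate 1 it was 0.61 and without TBX3iso1 replicate 2 it was 0.64, and after median-ratio scaling 0.64, each past both thresholds. COL4A5, a chain of the networks of kidney and epithelial basement membranes, gave 4.61 and 4.42 RPKM in EV, 3.11 and 2.45 in TBX3iso1 and 3.29 and 2.47 in TBX3iso2. All 4 isoform libraries were below EV, by -0.69 (-1.07 to -0.31, adjusted p = 0.0116) and -0.64 (-1.02 to -0.26, adjusted p = 0.0151), close to the fold threshold. These calls were lost without any of 3 libraries: EV replicate 1 (-0.66 and -0.61), EV replicate 2 (-0.72 and -0.67), or replicate 2 of the isoform line compared (-0.52 and -0.44). Both were also lost with quantile normalization (-0.52 and -0.53), a pseudocount of 1 RPKM (-0.55 and -0.51), no filter or no moderation.

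The other type IV chains were below the filter. COL4A6, which forms trimers with COL4A5, was at 0.600 and 0.553 RPKM in EV, 0.252 and 0.245 in TBX3iso1 and 0.526 and 0.505 in TBX3iso2, and the unfiltered fit gave -0.96 in TBX3iso1 (adjusted p = 0.00775) and 0.82 between the isoforms (adjusted p = 0.0333). COL4A3 and COL4A4, the chains of the glomerular network, reached no more than 0.0571 and 0.0786 RPKM.

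Type IV genes lie in head-to-head pairs, which is why their shared start regions are shown. COL4A1 (chr13:110801310-110959504, minus strand, hg19) and COL4A2 (chr13:110958159-111165556, plus strand) start from opposite strands, 127 bases apart in RefSeq, and COL4A5 (chrX:107683068-107940775, plus strand) and COL4A6 (chrX:107398837-107682727, minus strand) start 380 bases apart. In the windows of COL4A1 (GRCh38.p14, chr13:110307108-110307407, minus strand) and COL4A5 (GRCh38.p14, chrX:108439588-108439887, plus strand), capitals mark the bases shared with the window of the partner, 226 and 121 bases.
COL4A1: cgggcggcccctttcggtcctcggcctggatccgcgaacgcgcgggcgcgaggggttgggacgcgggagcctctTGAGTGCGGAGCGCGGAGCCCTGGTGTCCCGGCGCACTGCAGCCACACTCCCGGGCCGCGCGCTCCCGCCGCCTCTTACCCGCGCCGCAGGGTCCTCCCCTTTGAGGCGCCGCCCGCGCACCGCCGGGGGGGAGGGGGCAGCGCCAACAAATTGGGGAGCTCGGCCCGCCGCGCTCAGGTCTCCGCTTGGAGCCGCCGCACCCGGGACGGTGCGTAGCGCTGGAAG
COL4A5: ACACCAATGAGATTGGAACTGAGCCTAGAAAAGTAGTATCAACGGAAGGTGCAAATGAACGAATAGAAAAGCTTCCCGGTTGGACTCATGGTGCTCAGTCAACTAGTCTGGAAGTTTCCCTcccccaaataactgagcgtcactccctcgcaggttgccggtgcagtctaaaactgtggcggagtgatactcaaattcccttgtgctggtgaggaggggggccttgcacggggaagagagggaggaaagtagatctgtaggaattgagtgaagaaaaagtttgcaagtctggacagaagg
The COL4A1 window held 45 CG pairs and the COL4A5 window 8, beside a median of 14 over all windows. From these neighbouring starts the COL4A1 to COL4A2 ratio of RPKM was 0.364 and 0.339 in EV, 0.517 and 0.469 in TBX3iso1 and 0.388 and 0.353 in TBX3iso2. The ratio in TBX3iso1 was above that of the other lines with no overlap. COL4A1 and COL4A2 overlap in the GENCODE annotation, and antisense genes are annotated over COL4A2 and COL18A1. The libraries were stranded, but whether the counting used the strand is not given in the sources used here, so reads of such pairs may not be fully separated.

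Type VI collagen, the beaded filament that links basement membrane to stroma, had all 3 of its chains in the table tested. Of these, 3 were called higher in TBX3iso1, 2 higher in TBX3iso2 and 2 lower between the isoforms. The shares over all genes were 7.46%, 8.94% and 2.82%. The 3 genes summed to 45.5 and 42.8 RPKM in EV, 100.2 and 83.6 in TBX3iso1 and 70.7 and 57.4 in TBX3iso2. COL6A2 gave 0.505 and 0.330 RPKM in EV, 5.95 and 5.15 in TBX3iso1 and 1.90 and 2.22 in TBX3iso2. The 3 lines did not overlap, with a log2 fold change of 3.47 in TBX3iso1 (3.03 to 3.90, adjusted p = 1.60e-05), 2.08 in TBX3iso2 (1.65 to 2.51, adjusted p = 0.000144) and -1.39 between the isoforms (-1.82 to -0.96, adjusted p = 0.00369). Both rises over EV were the largest of the tested members. Its mean in EV was below 0.5 RPKM, so it passed the filter through the isoform lines.

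COL6A1, which pairs with COL6A2 in the type VI monomer, was at 20.1 and 19.3 RPKM in EV, 52.8 and 45.4 in TBX3iso1 and 20.8 and 19.6 in TBX3iso2. TBX3iso1 was higher than EV by 1.31 (1.10 to 1.52, adjusted p = 4.49e-05) and TBX3iso2 was lower than TBX3iso1 by -1.28 (-1.48 to -1.07, adjusted p = 0.000268), whereas TBX3iso2 and EV overlapped in their values and differed by 0.04 (-0.17 to 0.24, adjusted p = 0.774). COL6A3, the long chain that completes the monomer, gave 25.0 and 23.2 RPKM in EV, 41.5 and 33.1 in TBX3iso1 and 48.0 and 35.7 in TBX3iso2. Both isoform lines were above EV, by 0.62 (0.26 to 0.98, adjusted p = 0.0141) and 0.78 (0.42 to 1.14, adjusted p = 0.00523), and they overlapped each other. The TBX3iso1 call of COL6A3 was lost without EV replicate 1 (0.67, adjusted p = 0.0618), EV replicate 2 (0.57) or TBX3iso1 replicate 1 (0.46), and the TBX3iso2 call without EV replicate 2 (0.73, adjusted p = 0.0504) or TBX3iso2 replicate 1 (0.57).

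The chains of the type VI monomer stood in different ratios in the 3 lines. The COL6A1 to COL6A2 ratio was 39.7 and 58.5 in EV, 8.87 and 8.81 in TBX3iso1 and 10.9 and 8.81 in TBX3iso2. The COL6A3 to COL6A1 ratio was 1.24 and 1.20 in EV, 0.786 and 0.729 in TBX3iso1 and 2.31 and 1.82 in TBX3iso2, with no overlap between any of the lines. COL6A1 (chr21:47401684-47424964, plus strand, hg19) and COL6A2 (chr21:47518026-47552762, plus strand) are neighbours on the same strand, with 93062 bases between them. The window of COL6A2, the tested member with the largest rise, is shown with transcribed bases in capitals (GRCh38.p14, chr21:46097862-46098161, plus strand).
COL6A2: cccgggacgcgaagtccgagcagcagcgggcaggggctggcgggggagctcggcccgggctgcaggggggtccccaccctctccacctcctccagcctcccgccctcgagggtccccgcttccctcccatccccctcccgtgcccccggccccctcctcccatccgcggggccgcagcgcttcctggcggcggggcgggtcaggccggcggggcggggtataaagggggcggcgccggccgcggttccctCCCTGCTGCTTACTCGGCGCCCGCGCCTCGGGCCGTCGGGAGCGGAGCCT

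**Figure D2:**
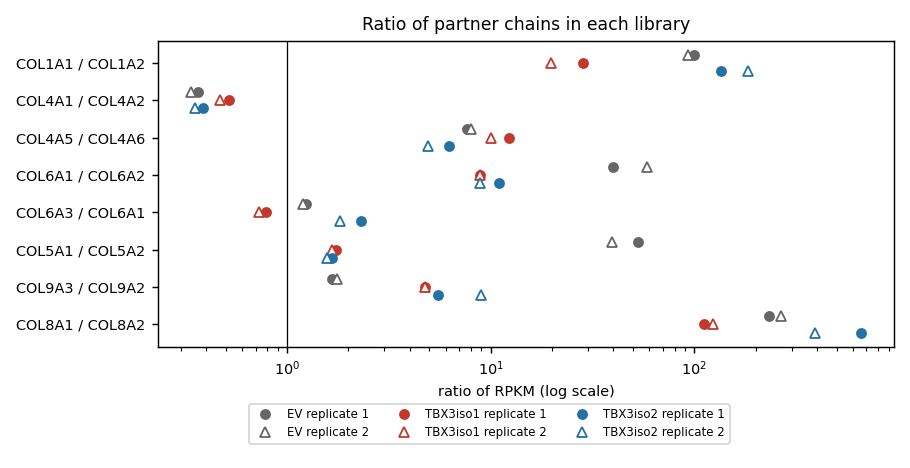
Ratio of RPKM (log axis) between partner chains in each library, with circles for replicate 1 and triangles for replicate 2 of EV, TBX3iso1 and TBX3iso2 and a line at a ratio of 1. The COL6A1 to COL6A2 ratio was 39.7 and 58.5 in EV and at most 10.9 in the other lines, and COL5A1 to COL5A2 fell from 53.0 and 39.5 to at most 1.73.

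COL7A1, the only chain of type VII collagen and the substance of the anchoring fibrils that tie the basement membrane to stroma, was called in all 3 comparisons. It gave 0.969 and 1.09 RPKM in EV, 3.81 and 3.50 in TBX3iso1 and 2.11 and 1.90 in TBX3iso2, with no overlap between lines. The differences were 1.73 (1.44 to 2.02, adjusted p = 5.72e-05), 0.90 (0.60 to 1.19, adjusted p = 0.00108) and -0.84 between the isoforms (-1.13 to -0.54, adjusted p = 0.00582). With a pseudocount of 1 RPKM the TBX3iso2 difference was 0.56, under the fold threshold, and with no moderation the difference between the isoforms had an adjusted p of 0.0624. COL7A1 lies on chr3:48601506-48632762 (minus strand, hg19), and its window (GRCh38.p14, chr3:48595280-48595579, minus strand), 62.3% G or C, is shown with transcribed bases in capitals because it was among the members that differed in every comparison.
COL7A1: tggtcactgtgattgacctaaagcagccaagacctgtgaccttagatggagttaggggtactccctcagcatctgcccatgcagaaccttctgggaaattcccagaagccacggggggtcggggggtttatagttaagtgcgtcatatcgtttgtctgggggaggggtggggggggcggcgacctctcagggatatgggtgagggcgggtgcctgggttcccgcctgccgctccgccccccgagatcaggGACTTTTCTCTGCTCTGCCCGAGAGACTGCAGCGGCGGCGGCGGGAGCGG

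COL8A1, a short chain that forms hexagonal networks under endothelium and in vessel walls, was the most abundant member in EV, at 42.7 and 38.7 RPKM. It fell to 22.9 and 21.3 RPKM in TBX3iso1 and was at 38.8 and 32.6 in TBX3iso2, so the TBX3iso1 libraries were the lowest of the 6. The change was -0.88 in TBX3iso1 (-1.12 to -0.64, adjusted p = 0.000488), -0.19 in TBX3iso2 (-0.43 to 0.04, adjusted p = 0.159) and 0.69 between the isoforms (0.45 to 0.92, adjusted p = 0.00579), the last losing the fold threshold without TBX3iso2 replicate 1 (0.56). Its partner chain COL8A2 was below the filter, at 0.184 and 0.145 RPKM in EV, 0.205 and 0.172 in TBX3iso1 and 0.0590 and 0.0832 in TBX3iso2. The unfiltered fit called COL8A2 lower in TBX3iso2 than in EV (-0.63, adjusted p = 0.0315), with about 14.0 and 16.8 alignments in TBX3iso2. COL10A1, the growth-plate chain of the same class, was at 0 or at most 0.0088 RPKM.

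Of the 10 FACIT chains, 4 were tested. COL9A2, a chain of cartilage type IX collagen, gave 3.45 and 3.30 RPKM in EV, 1.44 and 1.44 in TBX3iso1 and 1.19 and 0.861 in TBX3iso2. It was lower in both isoform lines, by -1.17 (-1.54 to -0.81, adjusted p = 0.000922) and -1.64 (-2.01 to -1.28, adjusted p = 0.000197), and the isoforms differed by -0.47 (adjusted p = 0.0886), which became a call without TBX3iso2 replicate 1 (-0.68). Its partner COL9A3 was at 5.71 and 5.80 RPKM in EV, 6.85 and 6.85 in TBX3iso1 and 6.53 and 7.72 in TBX3iso2. The COL9A3 difference in TBX3iso1 was 0.25 (adjusted p = 0.0796), past neither threshold. In TBX3iso2 it was 0.30 (adjusted p = 0.0428), under the fold threshold. Their ratio, COL9A3 to COL9A2, was 1.66 and 1.76 in EV, 4.77 and 4.75 in TBX3iso1 and 5.51 and 8.96 in TBX3iso2, while COL9A1, the remaining chain, stayed at or below 0.0145 RPKM.

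COL12A1, which coats type I fibrils in dense tissue, gave 3.56 and 3.16 RPKM in EV, 2.29 and 1.80 in TBX3iso1 and 2.18 and 1.62 in TBX3iso2. All isoform libraries were below EV, by -0.70 (-1.10 to -0.29, adjusted p = 0.0142) and -0.80 (-1.21 to -0.40, adjusted p = 0.00787). The first call was lost without EV replicate 1 (-0.62), EV replicate 2 (-0.78, adjusted p = 0.0569) or TBX3iso1 replicate 2 (-0.53), and the other without EV replicate 1 (-0.72, adjusted p = 0.0693). COL16A1, a FACIT of skin and cartilage, was at 0.725 and 0.708 RPKM in EV, 1.64 and 1.57 in TBX3iso1 and 0.854 and 0.852 in TBX3iso2. It was higher in TBX3iso1 by 1.06 (0.75 to 1.38, adjusted p = 0.000702) and lower in TBX3iso2 than in TBX3iso1 by -0.84 (-1.15 to -0.53, adjusted p = 0.00722), while its difference from EV in TBX3iso2 was 0.22 (-0.09 to 0.54, adjusted p = 0.209). The other FACITs, COL9A1, COL14A1, COL19A1, COL20A1, COL21A1 and COL22A1, were below the filter. Of these, COL14A1 was at 0.0280 and 0.0710 RPKM in EV, 0.0947 and 0.0663 in TBX3iso1 and 0.286 and 0.278 in TBX3iso2, where the unfiltered fit gave 1.37 over EV (adjusted p = 0.0076), from about 12.2 and 24.5 alignments in EV.

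COL13A1, a transmembrane collagen of cell-matrix adhesions, was the only tested chain of its class. It gave 1.60 and 1.57 RPKM in EV, 4.51 and 5.18 in TBX3iso1 and 4.76 and 4.45 in TBX3iso2. The isoform lines overlapped each other and stood clear of EV, by 1.55 (1.29 to 1.80, adjusted p = 5.23e-05) and 1.48 (1.23 to 1.74, adjusted p = 6.29e-05), with -0.07 between them (-0.32 to 0.19, adjusted p = 0.729). COL17A1, the hemidesmosome collagen of basal keratinocytes, was below the filter at 0.105 and 0.128 RPKM in EV, 0.367 and 0.301 in TBX3iso1 and 0.282 and 0.310 in TBX3iso2, and the unfiltered fit gave 1.00 and 0.87 (adjusted p = 0.00971 and 0.0134), from about 32.1 and 31.0 alignments in EV. The other transmembrane chains, COL23A1 and COL25A1, were at or below 0.0468 RPKM.

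COL18A1, the basement membrane collagen whose end fragment is endostatin, gave 18.9 and 17.5 RPKM in EV, 15.0 and 13.1 in TBX3iso1 and 17.8 and 16.9 in TBX3iso2. TBX3iso1 was below EV with an adjusted p of 0.0121, but the change of -0.37 (-0.58 to -0.17) missed the fold threshold. COL15A1, the related multiplexin, stayed at or below 0.126 RPKM. Among chains of no named class, COL26A1 was at or below 0.119 RPKM and COL28A1 was at 0.457 and 0.587 in EV, 0.0627 and 0.0359 in TBX3iso1 and 0.0277 and 0.0661 in TBX3iso2. The unfiltered fit gave -2.06 (adjusted p = 0.00403) and -2.09 (adjusted p = 0.00378) for COL28A1, with about 6.06 to 13.8 alignments in the isoform libraries.

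**Figure D3:**
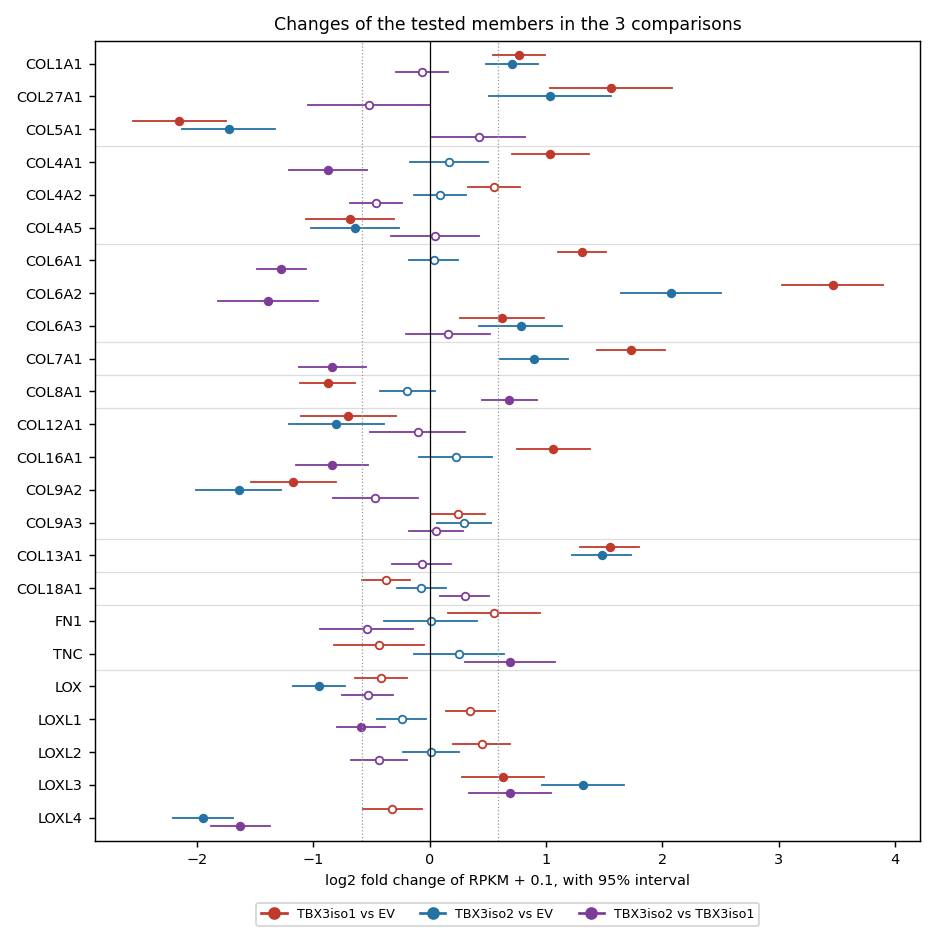
Log2 fold change of RPKM + 0.1 with its 95% interval for the 24 tested members in TBX3iso1 against EV, TBX3iso2 against EV and TBX3iso2 against TBX3iso1, filled where called and open where not, with dotted lines at a fold of 1.5. COL6A2 was highest, at 3.47 and 2.08 against EV, while COL5A1, at -2.15, and LOXL4, at -1.95, were lowest in TBX3iso1 and TBX3iso2.

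Other calls on collagens depended on the settings. With a pseudocount of 1 RPKM, COL12A1 in TBX3iso1 (-0.52), COL27A1 in TBX3iso2 (0.46) and COL16A1 between the isoforms (-0.49) missed the fold threshold, and quantile normalization took COL12A1 in TBX3iso1 to -0.50. With no filter, COL12A1 (adjusted p = 0.0567) and COL6A3 (adjusted p = 0.0655) in TBX3iso1 and COL4A1 between the isoforms (adjusted p = 0.0547) were not called. With no moderation, the calls of COL4A1, COL12A1 and COL6A3 in TBX3iso1, of COL12A1, COL27A1 and COL6A3 in TBX3iso2, and of COL4A1, COL6A2 and COL8A1 between the isoforms were lost, at adjusted p of 0.0544 to 0.144.

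FN1, whose product fibronectin is assembled by integrins into fibrils on the cell surface, gave 13.7 and 12.8 RPKM in EV, 21.9 and 17.3 in TBX3iso1 and 15.8 and 11.2 in TBX3iso2. TBX3iso1 was above EV by 0.55 (0.15 to 0.95, adjusted p = 0.0329), under the fold of 1.5, and the TBX3iso2 libraries lay on both sides of EV (0.01, -0.39 to 0.41). The TBX3iso1 difference passed both thresholds after median-ratio scaling (0.63), after quantile normalization (0.60) and without TBX3iso1 replicate 2 (0.72). Between the isoforms it was -0.54 (adjusted p = 0.0745), and -0.79 with a call without TBX3iso2 replicate 1. TNC, the gene of tenascin C, an anti-adhesive matrix protein of remodelling tissue, was at 27.1 and 23.7 RPKM in EV, 21.2 and 16.5 in TBX3iso1 and 35.2 and 26.0 in TBX3iso2. TBX3iso1 lay below EV, at -0.44 (-0.82 to -0.05, adjusted p = 0.0657), TBX3iso2 overlapped EV, at 0.25 (-0.13 to 0.64, adjusted p = 0.247), and the isoform lines differed from each other by 0.69 (0.30 to 1.08, adjusted p = 0.0319).

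The TNC call between the isoforms rested on the libraries used, at 0.51 without TBX3iso1 replicate 2 and 0.47 without TBX3iso2 replicate 1. It was also lost without EV replicate 1 (adjusted p = 0.0740) or EV replicate 2 (adjusted p = 0.0734), after quantile normalization (0.62, adjusted p = 0.0540), with no filter (adjusted p = 0.123) and with no moderation (adjusted p = 0.227). Without TBX3iso1 replicate 1 the TBX3iso1 difference from EV was a call, at -0.62. SPARC, a collagen-binding protein of stromal and bone matrix, was below the filter at 0.126 and 0.232 RPKM in EV, 0.0819 and 0.119 in TBX3iso1 and 0.0271 and 0.0728 in TBX3iso2. POSTN, the periostin gene of activated fibroblasts, was at 0.0134 and 0 RPKM in EV, 0.0725 and 0.0746 in TBX3iso1 and 0 in both TBX3iso2 libraries, with about 12.2 and 12.4 alignments in TBX3iso1. The unfiltered fit called POSTN higher in TBX3iso1 than in EV (0.70, adjusted p = 0.00551) and lower between the isoforms (-0.80, adjusted p = 0.0161).

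All 5 lysyl oxidases were tested, and the lines that were called differed from gene to gene. LOX, the founding enzyme of the family, gave 15.4 and 14.5 RPKM in EV, 11.8 and 10.5 in TBX3iso1 and 8.09 and 7.26 in TBX3iso2. The 3 lines did not overlap. The fall was called in TBX3iso2 (-0.95, -1.17 to -0.73, adjusted p = 0.000234), while in TBX3iso1 (-0.42, adjusted p = 0.00953) and between the isoforms (-0.53, adjusted p = 0.011) it missed the fold threshold, the last passing it without TBX3iso1 replicate 2 (-0.62) or TBX3iso2 replicate 1 (-0.61). LOXL1, which is best known for elastic fibers, was at 29.2 and 26.5 RPKM in EV, 36.5 and 34.4 in TBX3iso1 and 22.1 and 25.0 in TBX3iso2. It was called only between the isoforms, at -0.59 (-0.80 to -0.38, adjusted p = 0.00621), just past the fold threshold, and fell short of it without TBX3iso1 replicate 1 (-0.55) or TBX3iso2 replicate 1 (-0.50). LOXL2, a type IV collagen crosslinker, gave 20.9 and 17.8 RPKM in EV, 28.1 and 24.7 in TBX3iso1 and 20.2 and 18.8 in TBX3iso2, at 0.45 (adjusted p = 0.0107) and 0.01 over EV and under the fold threshold in every comparison.

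LOXL3 was the 1 lysyl oxidase higher in both isoform lines. It gave 0.913 and 0.764 RPKM in EV, 1.22 and 1.48 in TBX3iso1 and 2.18 and 2.29 in TBX3iso2, with no overlap between lines. It was higher by 0.63 (0.28 to 0.98, adjusted p = 0.0121) and 1.32 (0.97 to 1.67, adjusted p = 0.00043), and by 0.69 between the isoforms (0.34 to 1.04, adjusted p = 0.023). The TBX3iso1 call was lost without EV replicate 2 (0.51) or TBX3iso1 replicate 2 (0.50). The call between the isoforms was lost without EV replicate 1 (adjusted p = 0.0513), EV replicate 2 (adjusted p = 0.0508), TBX3iso1 replicate 1 (0.56) or TBX3iso2 replicate 2 (0.66, adjusted p = 0.0537). With a pseudocount of 1 RPKM, LOXL3 was not called in TBX3iso1 (0.35) or between the isoforms (0.46), nor was LOXL1 between the isoforms (-0.57). With no moderation these calls were also lost, and with no filter that of LOXL3 between the isoforms.

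LOXL4, a crosslinker of the same scavenger-receptor branch as LOXL2 and LOXL3, was at 4.44 and 3.99 RPKM in EV, 3.30 and 3.40 in TBX3iso1 and 1.02 and 1.01 in TBX3iso2. TBX3iso2 stood far below both other lines, at -1.95 against EV (-2.21 to -1.69, adjusted p = 1.96e-05) and -1.63 against TBX3iso1 (-1.88 to -1.37, adjusted p = 0.000222), while TBX3iso1 differed from EV by -0.32 (adjusted p = 0.0464), under the fold threshold. LOXL4 lies on chr10:100007447-100027951 (minus strand, hg19). Its window is shown, with transcribed bases in capitals, because it was the member with the largest difference between the isoforms (GRCh38.p14, chr10:98268145-98268444, minus strand), and it is 85.3% G or C with 45 CG pairs.
LOXL4: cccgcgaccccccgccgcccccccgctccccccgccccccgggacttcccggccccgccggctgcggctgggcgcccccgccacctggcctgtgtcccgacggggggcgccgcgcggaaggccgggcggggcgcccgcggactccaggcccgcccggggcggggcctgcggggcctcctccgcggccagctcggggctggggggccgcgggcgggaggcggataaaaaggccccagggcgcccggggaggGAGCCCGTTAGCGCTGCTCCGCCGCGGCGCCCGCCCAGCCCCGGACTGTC

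TBX3 and other T-box factors bind sequences around the letters AGGTGT, so the windows were searched for these letters on both strands. RefSeq windows matched 39 of the 51 members, and 3 of those 39 genes held the letters, beside 13.7% of all 27305 genes with a window. They were COL10A1, COL17A1 and COL26A1, all below the filter. In the unfiltered fit COL17A1 was called higher in both isoform lines (1.00 and 0.87, adjusted p = 0.00971 and 0.0134). COL10A1 and COL26A1 were not called in that fit. The longer words that contain them were rarer: AGGTGTCA was found in COL10A1, beside 1.08% of all genes, and AGGTGTGA in no member, beside 1.21%. None of the windows printed for COL4A1, COL4A5, COL6A2, COL5A1, COL7A1 and LOXL4 held the letters AGGTGT on either strand. Bases outside the windows were not searched, and binding of TBX3 to these genes was not tested.

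The enzymes and partners that make, secrete, receive and regulate collagen were taken as 4 lists, each read against the shares called over all genes, which were 7.46% higher and 14.1% lower in TBX3iso1, 8.94% and 12.3% in TBX3iso2, and 3.47% and 2.82% between the isoforms. At an unadjusted p under 0.05 and with no fold threshold, the shares over all genes were 23% higher and 30.6% lower in TBX3iso1, 26.7% and 26.8% in TBX3iso2, and 19.3% and 11.6% between the isoforms. Of 19 genes for hydroxylation, glycosylation and folding of chains, 18 were tested, with 3 called higher and 1 lower in TBX3iso1, 0 and 1 in TBX3iso2, and 0 and 2 between the isoforms by limma. At that unadjusted threshold, 9 were higher and 1 lower, 3 higher and 8 lower, and 1 higher and 16 lower. Their median log2 fold change was 0.18, -0.11 and -0.36. The most abundant by mean over the 6 libraries were PPIB, a prolyl isomerase, at 661 and 665 RPKM in EV, HSPA5, the ER chaperone, at 232 and 237, and SERPINH1, the collagen chaperone HSP47, at 198 and 180, and none of these was called. SERPINH1 in TBX3iso1, at 241 and 258 RPKM, passed the adjusted p (0.40, adjusted p = 0.0116) and missed the fold threshold. P3H2, a prolyl hydroxylase that acts on type IV collagen, fell from 4.49 and 4.72 RPKM to 2.27 and 2.16 in TBX3iso1 and 1.08 and 1.09 in TBX3iso2, by -1.03 (adjusted p = 0.000306) and -1.99 (adjusted p = 1.63e-05). COLGALT2, a collagen galactosyltransferase, had the largest rise in TBX3iso1, from 0.328 and 0.353 RPKM to 0.783 and 0.668 (0.90, adjusted p = 0.00478), and it passed the filter only through TBX3iso1, being below 0.5 RPKM on average in EV and TBX3iso2. With a pseudocount of 1 RPKM its difference was 0.36 and not called.

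Of 14 genes for secretion and propeptide cleavage, 9 were tested, with 2 higher and 1 lower in TBX3iso1, 0 and 1 in TBX3iso2, and 0 and 1 between the isoforms by limma, beside 3 and 1, 2 and 4, and 1 and 3 at an unadjusted p under 0.05. The most abundant were FURIN, a proprotein convertase, at 59.5 and 53.9 RPKM in EV, SEC23A, a coat protein of secretory vesicles, at 26.2 and 25.0, and CTAGE5, and FURIN and SEC23A were not called. CTAGE5, which helps to load bulky cargo at ER exit sites, was the gene lower in both, from 12.0 and 12.8 RPKM in EV to 7.84 and 8.28 in TBX3iso1 and 8.61 and 7.47 in TBX3iso2. Its changes, -0.61 and -0.62, were close to the fold threshold and missed it without EV replicate 2 (-0.57 and -0.58), without TBX3iso1 replicate 1 (-0.57 in TBX3iso1) and without TBX3iso2 replicate 2 (-0.52 in TBX3iso2), with a pseudocount of 1 RPKM (-0.56 and -0.57), and in TBX3iso1 after median-ratio or quantile scaling (-0.53). PCOLCE2, an enhancer of propeptide cleavage, rose in TBX3iso1 from 3.86 and 4.10 RPKM to 7.18 and 7.59 (0.88, adjusted p = 0.00105). BMP1, the procollagen C-proteinase itself, was at 5.72 and 5.42 RPKM in EV, 7.24 and 6.25 in TBX3iso1 and 4.27 and 4.17 in TBX3iso2, and was called between the isoforms (-0.66, adjusted p = 0.0062), but not without TBX3iso1 replicate 1 (-0.56), with a pseudocount of 1 RPKM (-0.57) or with no moderation.

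Of 13 receptors for collagen and fibronectin, 9 were tested by limma. In TBX3iso1 3 were called higher and 0 lower, in TBX3iso2 2 and 1, and between the isoforms 0 were called. At an unadjusted p under 0.05, 4 were higher and 2 lower in each isoform line against EV. Between the isoforms 1 was higher and 4 lower at that threshold. ITGB1, the shared integrin beta chain, was at 180 and 177 RPKM in EV and was not called. ITGAV, which pairs into fibronectin and vitronectin receptors, had the largest rise in both lines, from 10.2 and 9.36 RPKM to 22.1 and 18.0 in TBX3iso1 (1.02, adjusted p = 0.00211) and 19.9 and 14.1 in TBX3iso2 (0.77, adjusted p = 0.00727). The TBX3iso2 call was lost without EV replicate 2 (0.71, adjusted p = 0.0626) or TBX3iso2 replicate 1 (0.52), and both with no moderation. ITGA5, of the classical fibronectin receptor, rose in TBX3iso1 from 23.9 and 23.9 RPKM to 43.1 and 41.8 (0.83, adjusted p = 0.000405). ITGA2 was also called higher in TBX3iso1, from 7.57 and 6.81 RPKM to 12.9 and 10.4 (0.68, adjusted p = 0.0399). Its call was lost with no filter, with no moderation, and without EV replicate 1 (0.76), EV replicate 2 (0.61) or TBX3iso1 replicate 1 (0.52). DDR1, a collagen-binding tyrosine kinase, fell in TBX3iso2 from 33.7 and 31.1 RPKM to 18.9 and 17.8 (-0.81, adjusted p = 0.000223). In TBX3iso1 it was also below EV, at 22.5 and 20.8 RPKM (-0.58, adjusted p = 0.00107), just under the fold threshold. The isoform lines differed by -0.24 (adjusted p = 0.0928).

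Of 11 regulators of fibrils, 6 were tested, with 2 higher and 1 lower in TBX3iso1, 1 and 3 in TBX3iso2, and 0 and 2 between the isoforms by limma. At an unadjusted p under 0.05, 3 were higher and 3 lower in TBX3iso1, 2 and 3 in TBX3iso2, and 0 and 4 between the isoforms. TGM2, a transglutaminase that crosslinks fibronectin, was the most abundant at 438 and 401 RPKM in EV and was not called. In TBX3iso1, at 641 and 560 RPKM, it passed the adjusted p (0.52, adjusted p = 0.00929) and missed the fold threshold. THBS1, the gene of the adhesive glycoprotein thrombospondin, rose from 126 and 111 RPKM to 200 and 173 in TBX3iso1 and 198 and 162 in TBX3iso2. The changes, 0.64 and 0.59, were not called without EV replicate 2 (0.55 and 0.50), without replicate 1 of the isoform line (0.54 and 0.45), after quantile normalization (0.51 and 0.47) or with no moderation. TGFBI, a collagen-binding adhesion protein, was at 38.8 and 36.9 RPKM in EV, 127 and 132 in TBX3iso1 and 44.8 and 45.5 in TBX3iso2, a rise of 1.77 in TBX3iso1 (adjusted p = 5.60e-06) and a difference of -1.51 between the isoforms (adjusted p = 5.31e-05). BGN, the small proteoglycan biglycan, fell from 7.94 and 8.03 RPKM to 0.759 and 0.977 in TBX3iso1 and 1.09 and 0.888 in TBX3iso2, by -3.07 (adjusted p = 1.20e-05) and -2.90 (adjusted p = 1.53e-05).

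**Figure D4:**
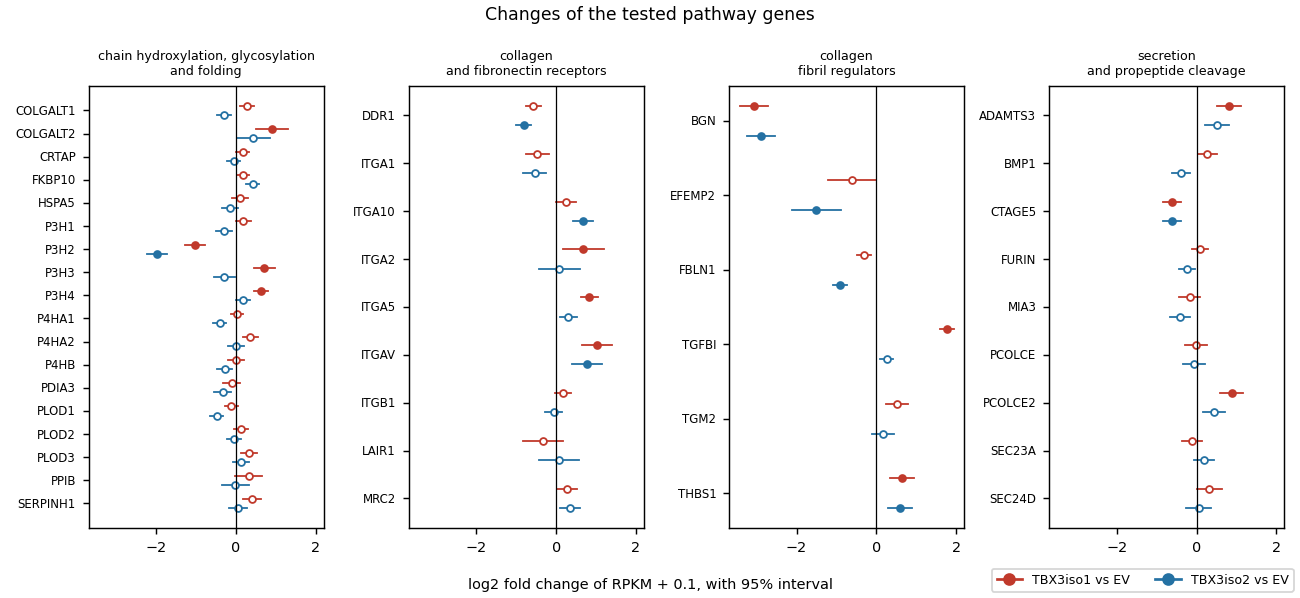
Log2 fold change of RPKM + 0.1 with its 95% interval for the tested genes of the 4 pathway lists, 1 panel a list, in TBX3iso1 and TBX3iso2 against EV, filled where called. BGN was the lowest in both lines, at -3.07 and -2.90, and TGFBI the highest in TBX3iso1, at 1.77.

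The tested members shared a direction between the replicates of a line. Replicate 1 was above replicate 2 for 21, 20 and 20 of the 24 tested members in EV, TBX3iso1 and TBX3iso2, with a median log2 difference of 0.101, 0.179 and 0.148, beside 0.0274, -0.00152 and 0.00879 over all genes tested. The SD of this difference over all genes was 0.182, 0.242 and 0.273. Collagen transcripts are long, and 14 of the 24 were among the longest 25% of 11117 tested genes with a coding transcript in GENCODE. Over those genes the median difference between replicates was 0.15 in TBX3iso1 and 0.227 in TBX3iso2 among the longest 25%, against -0.156 and -0.166 among the shortest 25%, and 0.046 against 0.007 in EV. Between lines the longest 25% had a median of -0.175 in TBX3iso1 and -0.11 in TBX3iso2 against EV, and the shortest 25% 0.085 and 0.113. Between the isoforms the medians were 0.062 and 0.045. The part of transcript length in the members' differences was not tested.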

How the data were processed

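The samples were 6 RNA-Seq libraries of 21NT cells, 2 for each of EV, TBX3iso1 and TBX3iso2, grouped by their titles. The authors prepared stranded mRNA libraries, aligned paired-end reads to hg19 with TopHat in Galaxy, keeping multiple alignments up to a cap, and computed RPKM in Partek Genomics Suite. The deposited values are RPKM on a linear scale, with 1 further row, naming no gene, that holds each library's alignment total and served for depth only. Software versions and the gene annotation are not given in the sources used here. Reads of near-identical genes may be shared between them. Whole reads could not be recovered from RPKM, so no count model was used.

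RPKM + 0.1 was taken to log2, and genes averaging 0.5 RPKM or more (12805 of 20824) entered limma 3.58.1 under R 4.3.3 (1 mean per line, moderated with a trend, Benjamini-Hochberg adjustment over all genes tested). A call needed an adjusted p under 0.05 and a fold over 1.5, as in the methods. The steps were tested on simulated data. The members, classes and lists were chosen with earlier results of these data known. Every member was named, with each library's values for glycoproteins, lysyl oxidases, up to 4 tested chains per class and those called in at least 2 comparisons. From each pathway list came the 3 most abundant genes and the largest rise and fall called. Positions were read from GENCODE v44 lifted to hg19, and promoter windows from RefSeq (GRCh38.p14).

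The alternatives tried were a pseudocount of 1 or 0.01 RPKM, no filter or a filter at 2 RPKM, median-ratio and quantile scaling, a replicate block, no moderation and leaving out each library, where the lone library of a line was assumed to vary like the others.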

Additional observations from a re-analysis of the deposited data

How the results depend on the processing

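The count of members lower in TBX3iso1 than in EV went from 5 to 3 with a pseudocount of 1 RPKM, a filter at 2 RPKM, quantile normalization or no moderation, and ranged from 3 to 6 when 1 library was left out (3 without EV replicate 1, EV replicate 2 or TBX3iso1 replicate 2). Between the isoforms, the members higher in TBX3iso2 went from 3 to 0 without limma's moderation (2 at an unadjusted p under 0.05) and were 1 to 2 when 1 library was left out (1 without EV replicate 1, EV replicate 2 or TBX3iso2 replicate 1), and those lower went from 7 to 3 without moderation. Over the other counts, leaving out 1 library gave 8 to 11 members higher in TBX3iso1, 5 to 7 higher and 4 to 6 lower in TBX3iso2, and 6 to 9 lower in TBX3iso2 than in TBX3iso1. Over the 4 pathway lists, genes higher in TBX3iso2 went from 3 to 1 without EV replicate 2, TBX3iso2 replicate 1 or moderation, genes lower between the isoforms from 5 to 8 without TBX3iso2 replicate 1, 3 with a pseudocount of 1 RPKM and 2 without moderation, genes higher in TBX3iso1 from 10 to 6 without moderation, and genes lower in TBX3iso1 from 3 to 5 with no filter. Over all 12805 genes tested, calls lower in TBX3iso1 went from 1802 to 1158 with a pseudocount of 1 RPKM. They went to 1313 after quantile normalization and 1204 without moderation, and a filter at 2 RPKM gave 1158 of 10313 genes. Between the isoforms, calls over all genes went from 444 higher and 361 lower to 103 and 96 without moderation. The cause of these moves was not tested.

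Of 993 values of single members under the alternatives, 65 lost the call, 11 gained one and 21 changed sign. The sign changes were all of differences that were not called. In TBX3iso2 against EV, quantile normalization gave -0.001076 for COL4A2, -0.006951 for COL6A1 and -0.0303 for LOXL2. Between the isoforms it gave -0.01274 for COL4A5 and -0.001688 for COL9A3, and median-ratio scaling gave -0.003762 for COL4A5. When 1 library was left out, TBX3iso2 against EV ranged over -0.0009822 to 0.1816 for COL4A2, -0.008915 to 0.07919 for COL6A1, -0.2422 to 0.2598 for FN1 and -0.1023 to 0.1279 for LOXL2. Between the isoforms it ranged over -0.3052 to 0.09893 for COL12A1, -0.1656 to 0.03027 for COL13A1, -0.1481 to 0.0157 for COL1A1, -0.1541 to 0.2452 for COL4A5, -0.05408 to 0.3743 for COL6A3 and -0.0681 to 0.1704 for COL9A3.

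The numbers of the replicates were not taken as pairs, since nothing in the labels ties them and each comparison has only 2 pairs, although the deviations of replicate 1 correlated between lines at 0.22, 0.114 and 0.499 over 12805 genes. With a replicate block the counts of members called were 10 and 5, 7 and 6, and 3 and 7, as without it. Over the 4 pathway lists the block moved the genes lower in TBX3iso1 from 3 to 4 and those lower between the isoforms from 5 to 7. The counting error of low chains is known only through approximate alignments.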
